A study of Mus musculus with 16 samples.

Results

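The 46 genes described here drive or mark cell division: the cyclins and cyclin-dependent kinases (Cdks), their inhibitors and pocket proteins, the transcription factors of proliferating cells, the replication machinery and the proteins of mitosis. They were taken by symbol from a list, and all 46 were found among the 30286 distinct gene symbols of the deposited table. Each had at least 1 TPM (a transcript level scaled for sequencing depth and transcript length) in every group, from 2.28 TPM (Cdkn2c in wild-type ectoderm) to 1658 TPM (Cdk4 in knockout mesenchyme). The markers Mki67, Top2a, Pcna and Cdk1 were all at 90.2 TPM or more in every group. They are members themselves, so their levels are no separate check of the label of the set.

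The tissue was the facial prominences, the buds that form the lip and palate, of C57BL/6 mouse embryos at embryonic day 12. Surface ectoderm and underlying mesenchyme were separated by surgery from wild-type (WT) embryos and from Esrp1-/- embryos (KO). The Esrp1 protein controls splicing in epithelia. Each of the 4 groups (WT ectoderm, KO ectoderm, WT mesenchyme, KO mesenchyme) had 4 libraries, each from a pool of 6 to 7 embryos, but the table gives 1 value per group. No difference below therefore has a replicate check, no error or p-value can be given, and "higher" and "lower" describe deposited values. Esrp1 itself had 170.0 TPM in WT and 62.9 in KO ectoderm, and near 1 TPM in both mesenchyme groups. The deleted stretch of the gene is not named in the labels, so its RNA in KO ectoderm is given as a value only.

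Progress through the cell cycle is set by pairs of cyclins and Cdks. D cyclins with Cdk4 or Cdk6 and then E cyclins with Cdk2 inactivate the pocket proteins Rb1 and Rbl1, which frees E2F factors to switch on replication genes. Later, A and B cyclins with Cdk1 start mitosis, and Foxm1 and Mybl2 help to switch on the genes of that phase. In the face, proliferation of both layers enlarges the prominences until they meet and fuse. In bulk tissue a larger share of dividing cells and more RNA per dividing cell cannot be told apart.

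Cdk4, the partner of the D cyclins, had the highest level of all members in every group, with 1319 and 1358 TPM in WT and KO ectoderm and 1592 and 1658 TPM in WT and KO mesenchyme. It ranked 102 among all symbols in WT ectoderm and 86 in WT mesenchyme. Its relative Cdk6 was at 5.19, 5.39, 2.84 and 3.52 TPM in the same order. Cdk4 thus held 75.5% of the summed TPM of Cdk1, Cdk2, Cdk4 and Cdk6 in WT ectoderm and 77.2% in WT mesenchyme, and Cdk6 0.30% and 0.14%. Cdk1, the kinase of mitosis, had 339 TPM in WT ectoderm and 357 in WT mesenchyme, and Cdk2 had 83.2 and 110.0. After Cdk4, the highest levels in WT ectoderm were those of Top2a (345 TPM), the topoisomerase that untangles replicated DNA, Cdk1, Ccnd2 (334 TPM) and Pcna (333 TPM), the sliding clamp of DNA polymerase.

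**Figure D1:**
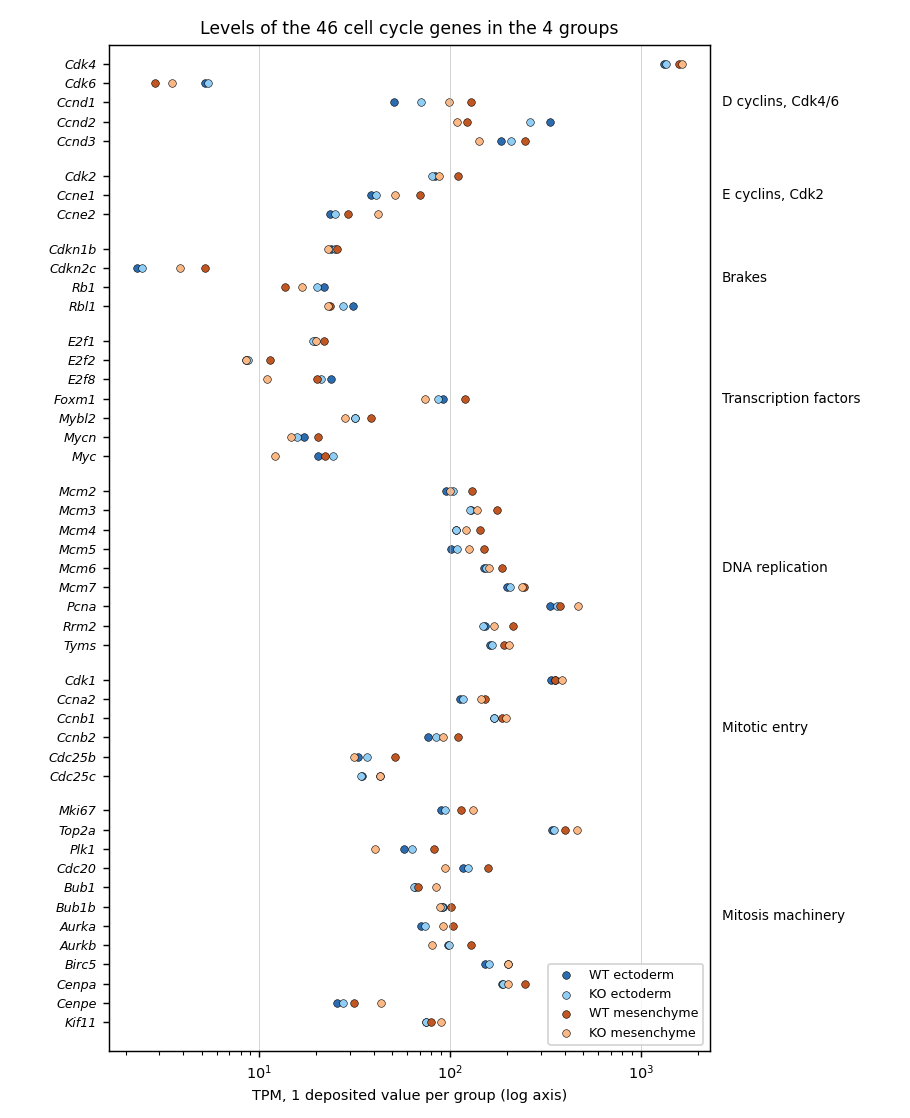
Deposited TPM (log axis, 1 value per group) of the 46 genes, ordered by role, with blue points for ectoderm and orange points for mesenchyme. WT mesenchyme (dark orange) holds the highest value for 29 of the 46 genes, and Cdk4 lies above all others at 1319 to 1658 TPM.

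Most members had more RNA in WT mesenchyme than in WT ectoderm, by a small margin. The log2 ratio of ectoderm over mesenchyme, taken of TPM plus 1 throughout, was below 0 for 41 of 46 members (89.1%), against 62.7% of the 14242 genes whose mean reached 1 TPM. The members' median was -0.30 and that of all genes -0.14. At 2-fold or more, 1 member was higher in ectoderm and 1 was lower, 2.17% each, against a background of 6.88% and 12.1% of all genes. At 1.5-fold or more, 3 were higher and 4 lower (6.52% and 8.70%, against 10.9% and 21.4%). After subtraction of the trend with transcript GC content, described below, 1 member was 2-fold higher and 1 lower (8.02% and 9.93% of genes), and 3 were 1.5-fold higher and 3 lower (13.9% and 16.4%). The layer difference was thus under 1.5-fold for most members, with a shared direction. Other cell types differed far more between the same columns. Summed markers of red blood cells had 4750 TPM in the ectoderm and 20223 in the mesenchyme of WT embryos (11 of 12 at least 2-fold lower in ectoderm), those of endothelium 25.5 and 424 (15 of 15), of skeletal muscle 26.9 and 491 (13 of 13), of neurons 100.3 and 216 (8 of 12, with 1 higher) and of macrophages and leukocytes 36.9 and 91.3 (7 of 11). None of these markers was at 0, and their part in the members' values was not tested.

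The replication genes shared that direction without exception. Mcm2 to Mcm7 form the ring that unwinds DNA at replication origins, and their 6 TPM values added to 786 in WT and 809 in KO ectoderm, and to 1035 in WT and 882 in KO mesenchyme. Mcm5 had the largest layer difference of the 6, with 101 TPM in WT ectoderm and 151 in WT mesenchyme (log2 ratio -0.57). Mcm3 had 129 and 177 TPM in these 2 groups, Mcm4 108 and 144, Mcm6 152 and 188, and Mcm7 200.5 and 245. Within each group the highest subunit, Mcm7, had from 1.89 to 2.38 times the TPM of the lowest, Mcm2. Rrm2, a subunit of the enzyme that makes deoxyribonucleotides, had 153 and 149 TPM in WT and KO ectoderm and 216 and 171 in WT and KO mesenchyme. Tyms, the thymidylate synthase, had 162, 166, 192 and 203 TPM in the same order, and Pcna 333, 363, 377 and 469.8. All 9 replication members were lower in WT ectoderm than in WT mesenchyme, with a median of -0.41 against -0.145 for all genes. All 9 stayed below 0 under each of the 9 alternative processings, with medians from -0.41 to -0.22. Changes of filter and subtraction of the mesenchyme share leave these WT ratios as they were, so those settings are no check of them.

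Genes of mitosis had the same direction in WT tissue. All 12 members of the mitosis machinery were lower in WT ectoderm, with a median of -0.36, as were all 6 members that govern entry into mitosis (median -0.36). The median of all genes was -0.145. After quantile normalization 9 of the 12 were still below 0, and after subtraction of the trend with transcript GC content 11 were. Ccna2 and Ccnb2, cyclins of S phase and mitosis, had 113 and 77.1 TPM in WT ectoderm and 153 and 109.8 in WT mesenchyme. Aurka, the kinase of the spindle poles, had 70.7 TPM in WT ectoderm and 104 in WT mesenchyme, and Plk1, a kinase acting from mitotic entry to cell division, at 57.2 and 83.1. Birc5 and Aurkb, which work together in the chromosomal passenger complex, were at 152 and 203 TPM and at 97.7 and 129 TPM. Cenpa, the histone of centromeres, was at 187 and 249 TPM. Mki67, the widely used proliferation marker, was at 90.2 and 114. Bub1, a checkpoint kinase of kinetochores, and Kif11, a spindle motor, were nearly level, at 65.4 and 68.3 TPM and at 75.3 and 79.8 TPM.

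The other cell cycle genes, from lists outside the 46, had the same lean. Of 38 further replication genes 30 were lower in WT ectoderm (median -0.24), and of 56 further genes of G2 and mitosis 48 were (median -0.23). Most of all genes were lower there too, by the share given above, with a median of -0.145. None was 2-fold apart in either list, against 6.88% of all genes higher and 12.1% lower. Larger differences lay among genes that hold cells back and among Myc relatives. The Cdk inhibitor Cdkn1c had 154 TPM in WT ectoderm and 528 in WT mesenchyme, and Gas1, a growth arrest gene, at 29.7 and 76.0. Cdkn1a, an inhibitor induced by p53, was at 33.3 and 13.1 TPM, and the antiproliferative gene Btg2 at 22.2 and 10.03. Mycl had 112 TPM in WT ectoderm and 32.2 in WT mesenchyme, while Mxd3, of the family that competes with Myc for its partner Max, was at 7.99 and 33.6.

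The D cyclins differed between the layers in opposite directions. Ccnd2 (chromosome 6, 127125162 to 127152193, GRCm38) had 334 TPM in WT and 264 in KO ectoderm, and 123 in WT and 109 in KO mesenchyme, so both ectoderm values lay above both mesenchyme values. Ccnd1 (chromosome 7, 144929931 to 144939925) had the reverse order, at 51.2, 70.4, 129 and 98.5 TPM. The log2 ratios of ectoderm over mesenchyme in WT were 1.44 for Ccnd2 and -1.31 for Ccnd1, and these were the 2 members that were 2-fold apart. Ccnd3 had 185 and 209 TPM in WT and KO ectoderm, and 249 and 141 TPM in WT and KO mesenchyme. Ccnd2 made up 58.6% of the summed D cyclin TPM in WT ectoderm, where Ccnd1 held 8.97%. In WT mesenchyme Ccnd3 made up 49.7%, Ccnd1 25.7% and Ccnd2 24.6%. Summed D cyclins reached 570.4 TPM in WT and 544 in KO ectoderm, and 500.1 in WT and 349 in KO mesenchyme.

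**Figure D2:**
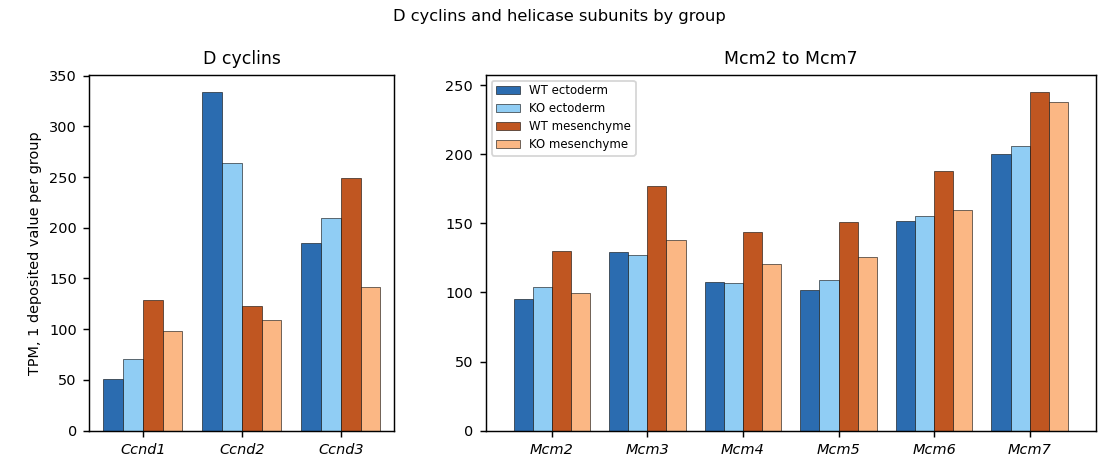
Bars from 0 give the deposited TPM (1 value per group, no error available) of the 3 D cyclins, left, and of the 6 helicase subunits Mcm2 to Mcm7, right. Ccnd2 stands highest in WT ectoderm at 334 TPM, Ccnd1 and Ccnd3 in WT mesenchyme at 129 and 249 TPM, and each Mcm gene is highest in WT mesenchyme.

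E cyclins and the brakes also differed among themselves. Ccne1 had 38.7 and 40.8 TPM in WT and KO ectoderm and 70.2 and 51.4 in WT and KO mesenchyme, and Ccne2 had 23.6, 24.9, 29.2 and 42.1 in that order, so that Ccne1 was highest in WT mesenchyme and Ccne2 in KO mesenchyme. The pocket proteins were the exception to the mesenchymal lean: Rb1 was at 21.95, 20.2, 13.7 and 16.8 TPM and Rbl1 at 31.2, 27.6, 23.5 and 23.1, both highest in WT ectoderm. The Cdk inhibitor Cdkn1b ranged from 23.1 to 25.6 TPM over the 4 groups. Cdkn2c, an inhibitor of Cdk4 and Cdk6, was at 2.28, 2.43, 5.24 and 3.86 TPM. Cdk6, Ccnd2, Rb1, Rbl1 and E2f8 were the 5 members with a ratio above 0, towards WT ectoderm.

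Promoters of cell cycle genes are known for CHR, CCAAT and E2F elements, and 5 are shown as examples that hold them, chosen for their matches and not typical of every member. RefSeq promoter windows of 300 bases (250 before and 50 from the annotated start, GRCm38.p6) matched 36 of the 46 members by symbol, in 40 windows. Ccna2, Ccnd1, Ccnd2, Ccne2, Cdc25c, Foxm1, Aurkb, Mcm4, Myc and Rb1 had no matching entry. Letters were searched on both strands: TTTGAA, the core of the CHR element bound by the complexes of Mybl2 and Foxm1, CCAAT, bound by NF-Y, and TTTCCCGC and TTTGGCGC, both E2F sites. Capitals mark these matches, written as the reverse complement where the match lies on the other strand. The matches do not overlap in the windows shown. Plk1 (chr7:122159185-122159484, plus strand), Cdc20 (chr4:118437294-118437593, minus strand) and Kif11 (chr19:37376132-37376431, plus strand) hold a CHR core. Mcm5 (chr8:75109259-75109558, plus strand) and Mcm6 (chr1:128359656-128359955, minus strand) hold E2F sites.
Plk1: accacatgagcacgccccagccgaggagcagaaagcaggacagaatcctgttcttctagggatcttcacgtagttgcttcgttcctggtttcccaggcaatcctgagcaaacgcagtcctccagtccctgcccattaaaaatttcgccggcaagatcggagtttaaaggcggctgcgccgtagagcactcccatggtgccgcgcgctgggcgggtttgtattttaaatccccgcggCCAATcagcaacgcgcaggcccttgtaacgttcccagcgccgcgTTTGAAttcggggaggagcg
Cdc20: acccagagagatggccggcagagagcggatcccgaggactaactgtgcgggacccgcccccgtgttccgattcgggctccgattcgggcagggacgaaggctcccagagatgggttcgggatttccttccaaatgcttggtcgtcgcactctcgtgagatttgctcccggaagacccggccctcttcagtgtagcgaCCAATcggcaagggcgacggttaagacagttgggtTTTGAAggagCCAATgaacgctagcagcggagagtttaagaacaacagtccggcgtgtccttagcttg
Kif11: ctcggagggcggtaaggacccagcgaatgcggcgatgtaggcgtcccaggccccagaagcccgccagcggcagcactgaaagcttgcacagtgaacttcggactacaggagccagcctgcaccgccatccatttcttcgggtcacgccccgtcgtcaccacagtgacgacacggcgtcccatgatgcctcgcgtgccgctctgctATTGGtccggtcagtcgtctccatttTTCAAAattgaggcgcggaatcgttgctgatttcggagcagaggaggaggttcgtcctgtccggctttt
Mcm5: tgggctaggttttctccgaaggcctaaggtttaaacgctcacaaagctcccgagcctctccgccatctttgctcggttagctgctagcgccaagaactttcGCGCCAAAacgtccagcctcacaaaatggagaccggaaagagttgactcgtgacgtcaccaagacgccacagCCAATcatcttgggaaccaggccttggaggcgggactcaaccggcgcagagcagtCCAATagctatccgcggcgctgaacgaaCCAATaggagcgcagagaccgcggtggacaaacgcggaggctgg
Mcm6: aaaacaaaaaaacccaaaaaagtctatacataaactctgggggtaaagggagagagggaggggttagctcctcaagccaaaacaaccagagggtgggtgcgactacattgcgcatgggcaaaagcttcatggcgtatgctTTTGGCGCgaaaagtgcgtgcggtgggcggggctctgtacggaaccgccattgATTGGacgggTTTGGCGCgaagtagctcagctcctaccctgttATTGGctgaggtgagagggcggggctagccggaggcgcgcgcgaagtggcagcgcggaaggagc

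CHR cores stood in 8 of 11 windows of the mitosis machinery (72.7%) and in 2 of 4 of mitotic entry, against 1 of 9 of replication (Mcm2, 11.1%) and 17.9% of all 32851 windows. E2F sites stood in 4 of the 9 replication windows (44.4%), those of Mcm3, Mcm5, Mcm6 and Mcm7, in none of the 11 windows of the mitosis machinery and in 1.56% of all windows. The split was not complete: the other 5 replication windows (Mcm2, Pcna, Rrm2, Tyms and 1 of the 2 of Mcm7) held no exact E2F match. Of 6 windows of transcription factors, 3 held a CHR core (E2f2, E2f8 and Mycn) and 2 an E2F site (E2f2 and Mycn). Cdk2 held an E2F site too. Ccnb1, Cdc25b, Birc5, Bub1 and Cenpe held no exact TTTGAA. Variants of the strings were not searched, so an element in another form would be missed in all these counts. CCAAT was found in 29 of the 40 member windows (72.5%), 8 of 9 in replication and 10 of 11 in the mitosis machinery, against 37.4% of all. A match is a description of the letters and not evidence of binding. Plk1, Cdc20 and Kif11 share the CHR core and CCAAT. Their log2 ratios of KO over WT mesenchyme were -1.021, -0.745 and 0.163, and their transcript GC contents 55.98%, 55.61% and 42.19%. A link between these elements and the ratios was not tested.

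**Figure D3:**
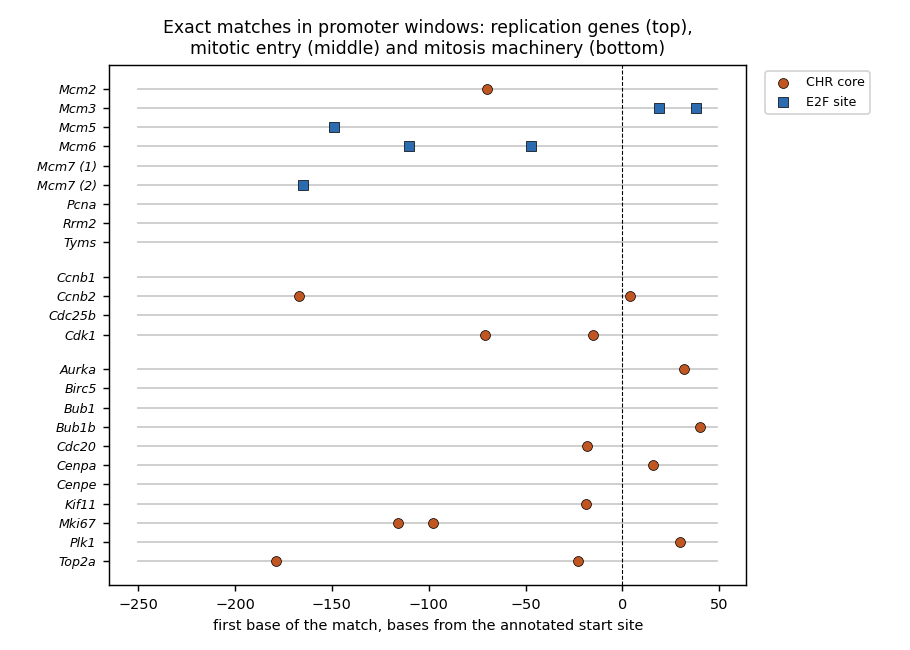
Positions of exact CHR core (orange circles) and E2F site (blue squares) matches in the RefSeq windows of replication, mitotic entry and mitosis machinery genes, in bases from the annotated start site (dashed line). Grey lines span each 300-base window, and circles gather among the mitosis genes (8 of 11 windows) and squares among the replication genes (4 of 9 windows).

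In KO ectoderm the cell cycle genes stayed close to WT. None of the 46 was 1.5-fold higher or lower, against 4.92% of 13935 genes that were higher and 0.452% that were lower. The count was also 0 after subtraction of the GC trend, against 4.14% and 0.644% of genes. Ratios ran from -0.34 (Ccnd2) to 0.45 (Ccnd1), and the members' quartiles were -0.02 and 0.08, against -0.04 and 0.18 for all genes. The median was 0.04 for the members and 0.05 for all genes. The sign of the members' median depended on the scaling, as it was -0.02 with columns brought to the same sum and -0.01 after quantile normalization. Mki67 had 90.2 TPM in WT ectoderm and 94.9 in KO, Top2a at 345 and 351, Mcm2 at 95.3 and 104, and Ccnb1, the main B cyclin, at 171 and 170.2.

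The D cyclins held the 2 largest differences there. Ccnd1 had 51.2 and 70.4 TPM and Ccnd2 334 and 264 TPM (WT and KO), so both stood nearer to their mesenchyme values in KO. Markers of mesenchyme moved with them: 25 of 29 core markers were at least 1.5-fold higher in KO ectoderm. The background for this and the next marker counts was 4.92% of all genes. No core marker of mesenchyme was at 0. Their summed level was 432 TPM in WT and 885 in KO ectoderm, against 4746 and 3450 in the mesenchyme of WT and KO embryos. The summed epithelial core markers (26 genes, none at 0) were at 4085 TPM in WT and 3658 in KO ectoderm, and at 40.1 and 42.1 TPM in WT and KO mesenchyme. Endothelial markers (12 of 13 at least 1.5-fold higher in KO ectoderm, summed TPM 25.5 and 67.0) and skeletal muscle markers (11 of 11, summed TPM 26.9 and 100.8) were higher too. So were 6 of 9 neuron markers (summed TPM 100.3 and 130.1), 4 of 9 macrophage and leukocyte markers (36.9 and 48.6) and 1 of 11 red blood cell markers (4750 and 5009), and none of these markers was at 0. The part of these cell types in the members' values was not tested. A share of mesenchyme RNA of 11.1%, estimated from mesenchyme core markers, was taken out of KO ectoderm. The ratio of Ccnd1 was then 0.30 in place of 0.45 and that of Ccnd2 -0.25 in place of -0.34. No member was then 1.5-fold apart. Both the estimate and the subtraction used WT mesenchyme. KO mesenchyme, where the summed core markers and Ccnd1 (98.5 against 129 TPM) were lower, was not tried. Of 125 other cell cycle genes measured in ectoderm, 1 was at least 1.5-fold higher and 0 were lower, against 4.92% and 0.452% of all genes. The higher gene was Cdkn1c (154 and 246 TPM in WT and KO, a ratio of 0.67, or 0.45 with the mesenchyme share taken out).

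KO mesenchyme differed more: 8 of the 46 genes lay 1.5-fold or further below WT and 0 above. These 8 are 17.4% of the members, near the background of 13.4% of 14233 genes lower, and 2.33% of all genes were higher. Of 46 ratios 33 were below 0 (71.7%, against 63.4% of all genes), with a median of -0.22 against -0.12 for all genes. The lower genes were Plk1, Cdc20, Aurkb, Cdc25b, Foxm1, E2f8, Myc and Ccnd3.

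Plk1 (chromosome 7, 122159439 to 122169873, GRCm38) had the lowest ratio, with 83.1 TPM in WT mesenchyme and 40.4 in KO (-1.02), and its KO mesenchyme value was the lowest of the 4 groups. Cdc20 (chromosome 4, 118432901 to 118437352), the activator of the ubiquitin ligase that ends mitosis, had 159 and 94.7 TPM (-0.74). Aurkb was at 129 and 81.0 TPM (-0.67). Cdc25b, a phosphatase that activates Cdk1, was at 51.8 and 31.6 (-0.69), while its relative Cdc25c stayed at 43.0 and 42.9.

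All 7 transcription factors of proliferation had ratios below 0 in mesenchyme, as had 63.4% of all genes, with a median of -0.45. Foxm1 had 119.6 TPM in WT mesenchyme and 74.4 in KO (-0.68), Mybl2 at 38.8 and 28.4 (-0.44), and E2f8, a repressor that acts on E2F targets, at 20.1 and 11.0 (-0.81). Myc (chromosome 15, 61985391 to 61990374) had 22.1 and 12.1 TPM (-0.82) and Mycn at 20.5 and 14.7 (-0.45). E2f1 was close to level, at 21.8 and 19.9, and E2f2 had 11.4 and 8.54 (-0.38). After subtraction of the GC trend 4 of the 7 were below 0, with a median of -0.04. Of the D cyclins, Ccnd3 (chromosome 17, 47505051 to 47599691) had 249 TPM in WT mesenchyme and 141 in KO (-0.81).

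Other members, among them classical proliferation markers, were higher in KO mesenchyme, all within 1.5-fold. Cenpe, a kinetochore motor, had 31.5 TPM in WT mesenchyme and 43.5 in KO (0.45), Ccne2 at 29.2 and 42.1 (0.51), Pcna at 377 and 469.8 (0.32), Bub1 at 68.3 and 84.2 (0.30), Mki67 at 114 and 132 (0.21) and Top2a at 404 and 465 (0.20). Cdk1 was at 357 and 387. Birc5 was at 203 in both, and Bub1b, a checkpoint relative of Bub1, had 102 and 88.6. Thus members of the same machinery pointed both ways: 7 of the 12 genes of the mitosis machinery were below 0 and 5 above, and after subtraction of the GC trend 4 were below and 8 above. The summed TPM of the 12 was 1726 in WT and 1616 in KO mesenchyme.

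**Figure D4:**
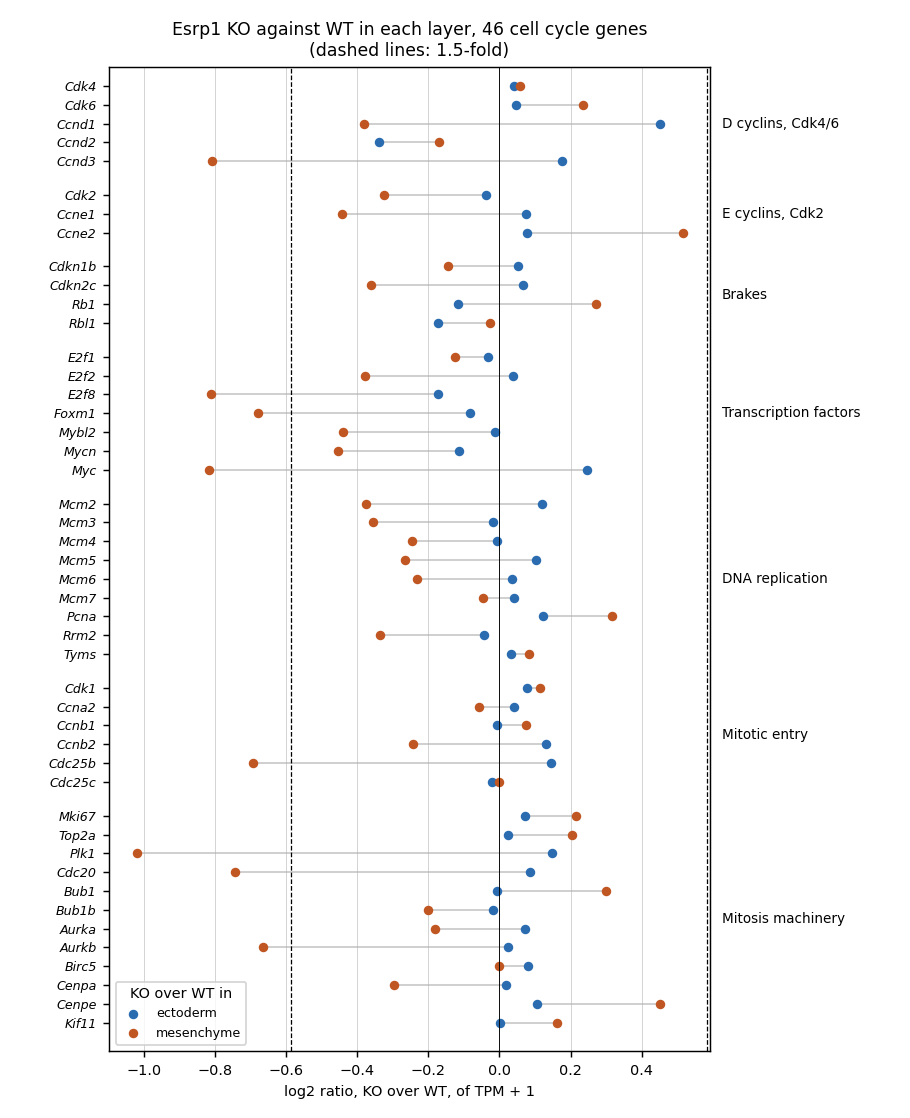
Log2 ratio of KO over WT (TPM plus 1) for each gene in ectoderm (blue) and mesenchyme (orange), joined by a grey line, with dashed lines at 1.5-fold. All blue points lie between -0.34 and 0.45, whereas the orange points spread from -1.02 (Plk1) to 0.51 (Ccne2), 8 of them left of the lower dashed line.

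Transcript GC content moved with these ratios. The 8 lower members had a GC content of 50.1% to 56.7% in their longest coding transcript, with a median of 54.4%, and the 13 members with a ratio above 0 had a median of 44.1%. Across the 46 members the ratio and GC content had a Pearson r of -0.75 and a Spearman rho of -0.76, and across 10911 genes at 5 TPM or more -0.60 and -0.66. Genes are not independent replicates, and these describe 2 columns of values. After the trend of all genes was subtracted, 1 of 46 members, E2f8 (-0.60), remained 1.5-fold lower, where 2.12% of all genes were lower and 4.84% higher. The members' median was then -0.03 and that of all genes 0.036. Plk1 was then at -0.56, Myc at -0.46, Aurkb at -0.34, Ccnd3 at -0.32, Cdc25b at -0.30, Cdc20 at -0.30 and Foxm1 at -0.27. These genes were picked for low ratios in the same 2 columns, so their shared sign is no separate support for a decrease. Of all 46 members 22 were then above 0 and 24 below. In ectoderm the same correlation over members was 0.20.

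**Figure D5:**
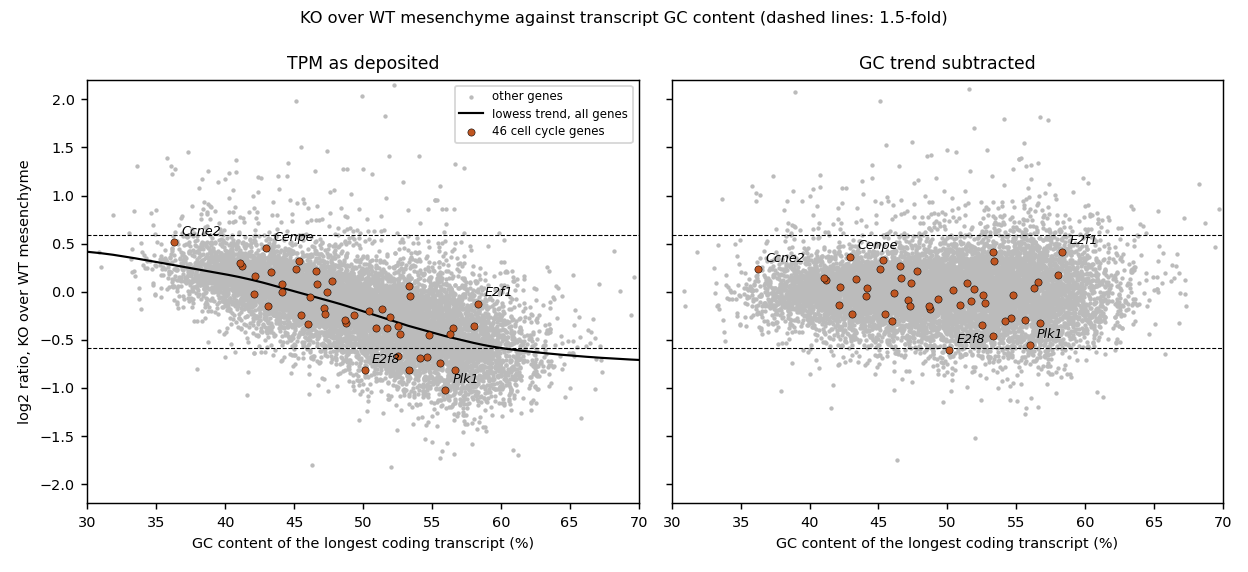
Log2 ratio of KO over WT mesenchyme against GC content of the longest coding transcript, before (left) and after (right) subtraction of the trend over all genes, with the 46 cell cycle genes in orange, other genes at 5 TPM or more in grey (axes limited to the bulk of genes) and dashed lines at 1.5-fold. On the left the orange points follow the black trend line, and on the right 1 of them, E2f8, lies beyond 1.5-fold.

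Other features differed between the same columns. The labels list 2 index barcodes for 2 of the 4 KO mesenchyme libraries and for none of the 4 WT mesenchyme libraries (1 of 4 in WT ectoderm and 2 of 4 in KO ectoderm), and the kind of index and genotype cannot be told apart with 1 value per group. Mesenchyme core markers were at least 1.5-fold lower in KO mesenchyme in 16 of 29 cases, endothelial markers in 6 of 15 (1 was higher, summed TPM 424 and 305 in WT and KO) and muscle markers in 5 of 14 (491 and 379), against 13.4% of all genes. Neuron markers were higher in 7 of 12 cases (216 and 332, none at 0), against 2.33% of all genes. These marker counts are of values as deposited, without subtraction of the GC trend. After that subtraction 2.12% of all genes were lower and 4.84% higher. The part of these cell types in the members' values was not tested. Exons of 5 of the 8 lower genes overlap a gene on the opposite strand in GENCODE M21 (Plk1, Cdc20, Cdc25b, Ccnd3 and E2f8), as do those of 15 of all 46 members, Cdk4, Cdk6, Ccne2 and Rb1 with ratios above 0 among them. Whether reads were assigned by strand is not given in the sources used here. The share of all genes with such an overlap was not counted, and the part of overlaps in these ratios was not tested.

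Of 124 other cell cycle genes measured in mesenchyme, 14 lay 1.5-fold or further below WT in KO (11.3%) and 0 above, against the 13.4% and 2.33% of all genes given above. The share of lower genes was thus not above the background, and the genes are named to show which they were. In replication 3 of 38 were lower: Pold1, the catalytic subunit of a replicative polymerase (80.4 TPM in WT and 43.5 in KO), the licensing factor Cdt1 (35.9 and 19.6) and Ung (25.7 and 14.9). Among genes of G2 and mitosis 6 of 56 were lower, led by Espl1, the separase that releases sister chromatids (32.6 and 16.9), Kif18b (38.3 and 21.2), Incenp (82.3 and 50.8) and Ube2c (252 and 157). E2f4 (83.96 and 46.9), Mycl (32.2 and 19.9) and E2f7 (27.7 and 17.8) made up 3 of 14 E2F partners and regulators. Pkmyt1, a kinase that inhibits Cdk1, was at 26.7 and 15.7 TPM, and Gas1 at 76.0 and 47.9. After subtraction of the GC trend Ung (-0.62) was the 1 gene still lower, and Btg2 (10.03 and 14.5 TPM, 0.68) was higher, where 2.12% and 4.84% of all genes were.

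The response to loss of Esrp1 was also compared between layers, as the ectoderm ratio minus the mesenchyme ratio. At 2-fold or more, 2 members were higher (4.35%, against 7.34% of 14329 genes) and 0 lower (0.593% of genes). These were Plk1, with 0.15 in ectoderm and -1.02 in mesenchyme, a difference of 1.17, and Myc, with 0.24 and -0.82, a difference of 1.06. At 1.5-fold, 9 members were higher (19.6%, against 22.9% of genes) and 0 lower (2.35%), adding Ccnd3, Cdc25b, Ccnd1, Cdc20, Aurkb, E2f8 and Foxm1. After subtraction of the GC trend 2 were 1.5-fold higher, Myc (0.64) and Plk1 (0.61), and E2f1 was lower (-0.60), against 6.94% and 5.69% of genes, and 0 members were 2-fold apart, against 2.2% and 1.23%. The members' median of 0.25 lay near that of all genes, 0.19.

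The layers were also compared within KO. Of 46 members 28 were lower in KO ectoderm than in KO mesenchyme, with a median of -0.115, where 49.9% of all 14411 genes were lower. Ccnd2 (1.26) was the 1 member at least 2-fold higher in ectoderm and 0 were 2-fold lower, against 9.06% and 6.88% of genes. At 1.5-fold Myc (0.95), E2f8 (0.88) and Plk1 (0.64) were also higher in ectoderm and Ccne2 (-0.73) and Cenpe (-0.63) lower, against 17.6% and 13.4% of genes. After subtraction of the GC trend 1 member was 2-fold higher and 0 lower (7.46% and 7.65% of genes), and 3 were 1.5-fold higher and 1 lower (13.7% and 15% of genes). The lean towards mesenchyme was smaller in KO than in WT as deposited (28 against 41 members below 0, medians of -0.115 and -0.30), but not under every setting. As deposited the median of all genes moved the same way, from -0.145 in WT to 0.001 in KO, so this was not particular to the members. The members' lean was 33 against 36 after GC subtraction (medians of -0.134 and -0.188) and 33 against 35 after quantile normalization (-0.162 and -0.195). With the length trend subtracted it was 31 against 33 with medians in the reverse order (-0.177 and -0.156), and after both trends 35 in each (-0.142 and -0.171). This comparison shares its columns with those above.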

How the data were processed

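The authors deposited TPM per gene symbol, with 1 column per group and no value per library, in a table of 30391 rows. The submitters' processing notes name STAR 2.5.2a, kallisto 0.43.0 and mm10. Which tool gave the values, the annotation, strand use and how 4 libraries became 1 value: not given in the sources used here. The depth is unknown. Of 103 symbols in several rows, the row with the larger sum over groups was used; no member was among them. Columns added to between 917993 and 977371 TPM. The planned linear model needs values per library and was not run.

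Log2 ratios were taken of TPM plus 1, which understates changes of low genes, for genes whose mean over the groups compared reached 1 TPM. Folds of 1.5 (KO) and 2 (between layers) were counted over all genes and members alike. All members and, per list, up to 4 other genes past the fold with 5 TPM or more are named. Members and lists were chosen with earlier results of these data known.

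GC content and length of the longest coding transcript came from GENCODE M21 (GRCm38), matched by symbol for 99.0% of symbols and all members. Trends were fitted by lowess (fraction 0.3, statsmodels 0.14.6) on genes at 5 TPM or more. The share of mesenchyme RNA was the median, over 26 core markers at least 5-fold higher in WT mesenchyme, of the gain in KO ectoderm in percent of the WT layer difference. That share of the WT mesenchyme values was taken out of KO ectoderm. Steps were tested on simulated data with a set GC trend and an exact mix of WT ectoderm and WT mesenchyme. This checks the calculation and not the share in real tissue. Alternatives were a pseudocount of 0.1, no filter, a filter at 5 TPM, columns rescaled to 1 sum, quantile normalization, subtraction of the GC trend or of the mesenchyme share, and, added after seeing the data, of the length trend alone or with the GC trend.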

Additional observations from a re-analysis of the deposited data

Results flagged for a closer look

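Plk1 and Myc had KO effects of opposite sign in the layers, at least 2-fold apart. They are 2 of 46 members, not above the background, as 7.34% of 14329 genes were at least 2-fold higher in this difference, whatever their signs. The ectoderm ratios behind the opposite sign were small, 0.149 for Plk1 and 0.245 for Myc. For Plk1 the effect in ectoderm minus that in mesenchyme was 1.17 on the log2 scale, with 57.2 and 63.6 TPM in WT and KO ectoderm and 83.1 and 40.4 TPM in WT and KO mesenchyme. For Myc it was 1.06, with 20.3 and 24.3 TPM in ectoderm and 22.1 and 12.1 TPM in mesenchyme. With 1 value per group the difference was not tested. After subtraction of the trend with transcript GC content it was 0.61 for Plk1 and 0.64 for Myc.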

How the results depend on the processing

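Of 135 recomputed counts and medians of the members, 24 moved. Some had little or no room to move: changes of filter leave the members' ratios as they were, and the mesenchyme share alters KO ectoderm only. KO ectoderm had 0 members 1.5-fold apart under all 9 alternatives. In KO mesenchyme the 8 lower members became 5 after quantile normalization (with 2 higher), 1 after subtraction of the GC trend, 4 after that of the length trend (with 1 higher) and 1 after both; the median of -0.22 became -0.086, -0.026, -0.013 and 0.01 in that order. The last 2 were chosen after seeing the data. With these 4 settings the WT layer median of -0.30 became -0.195, -0.188, -0.156 and -0.171, and the difference between KO effects had 0 members 2-fold apart in place of 2, with medians of 0.06, -0.039, -0.017 and -0.062 in place of 0.25. The median of all genes moved too with these 4 settings, in the same order. In KO mesenchyme it went from -0.12 to 0.02, 0.036, 0.037 and 0.026. Between the WT layers it went from -0.145 to 0.015, -0.008, -0.011 and -0.012. For the difference between KO effects it went from 0.19 to -0.041, -0.017, -0.025 and -0.007. The members' shifts were thus in part shared by all genes. With a pseudocount of 0.1, 2 members were 2-fold lower in WT ectoderm than mesenchyme and 2 were 2-fold higher between the KO layers, in place of 1 each. The cause of these changes was not tested. No member 2-fold or 1.5-fold apart changed sign, but these members were picked by the size of the same ratios. No paired analysis was possible because the columns carry no replicate numbers, and no replicate could be left out.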
